A study of Mus musculus with 6 samples.

Results

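The genes described here are 10 mouse genes of the uterine progesterone response and of decidualization: Ihh, Ptch1, Gli1, Nr2f2, Hand2, Bmp2, Fkbp5, Cebpb, Foxo1 and Gata2. They were chosen by name, and all 10 were found among the 56884 genes of the count table. RNA was sequenced from 3 wild-type (WT) and 3 Dnmt3a knockout (KO) ectopic lesions, which are pieces of donor uterus grown in the peritoneal cavity of a host mouse as a model of endometriosis. WT donors were Dnmt3a f/f females, with both Dnmt3a alleles floxed and no Cre, and KO donors were Dnmt3a f/f:PR-Cre/+ females, 8 weeks old in both groups. By the study's methods, donors of both groups were injected with estradiol once daily for 3 days before their uterus was taken. All hosts were wild-type C57BL/6J females of the same age with an estradiol pellet, so every lesion grew under added estrogen, and no progesterone treatment is described. The labels give 4 weeks as the time and describe injected uterine fragments, whereas the study's methods describe 1 endometrial fragment sutured to the mesentery and collection on day 21. This difference could not be resolved here.

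Cre was expressed from 1 allele of the progesterone receptor gene, so deletion was limited to donor cells that have expressed that receptor. WT donors lacked Cre, and an effect of the Cre allele itself cannot be told apart from loss of Dnmt3a. Each library came from a whole piece of lesion, which also holds host vessels, immune cells and fat. In such bulk RNA, fewer cells of a type and less RNA per cell cannot be told apart.

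Progesterone acts on the uterus through its receptor, a transcription factor held in a ligand-ready state by Hsp90 and its co-chaperones. In the epithelium it induces Ihh, a secreted Hedgehog ligand, which signals to the stroma through the receptor Ptch1 and the transcription factor Gli1. The stroma answers with Nr2f2, Hand2 and Bmp2, and stromal cells then turn into decidual cells with the help of Cebpb and Foxo1. Dnmt3a is a de novo DNA methyltransferase that places methyl groups on cytosines, mainly at CpG.

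Libraries held 45370342 to 57239184 counts. Dnmt3a, the targeted gene, measured 52.7, 43.9 and 51.7 CPM (counts per 1000000 counts of the library, scaled by the TMM method) in the WT lesions, against 30.3, 33.5 and 36.2 CPM in the KO lesions. Values of a group stand here and below in the order of replicates 1, 2 and 3. All 3 KO lesions were below all 3 WT lesions, with a log2 fold change of -0.57 (SE 0.14, edgeR adjusted p = 0.321). KO replicate 2 stood apart: 192 genes had at least 90% of their summed CPM in it, while the WT libraries had 4, 100 and 55 such genes and KO replicates 1 and 3 had 0. They were led by Ovgp1, an oviduct secretory glycoprotein, with 4104 CPM there and 2.61 to 50.5 CPM elsewhere, and also included oocyte and ovary genes such as Zp2 and Hsd3b1. WT replicate 2 was rich in neutrophil markers, with a summed level of 9830 CPM against 36.1 to 478 CPM in the others. WT replicates 1 and 3 carried 27680 and 28740 CPM of skeletal muscle markers, and the other libraries at most 14.0 CPM. Members that depend on KO replicate 2 or WT replicate 2 are given with and without that library. Leaving out both WT replicates 1 and 3 would keep only WT replicate 2, so no result is given without both.

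None of the 9 members that could be tested changed at an adjusted p under 0.05 in edgeR's quasi-likelihood test, where 0.0055% of the 18177 genes tested passed. At an unadjusted p under 0.05, Hand2 and Ptch1 were higher in KO lesions and Bmp2 was lower. These are 2 of 9 higher, where 6.55% of all tested genes were higher by that rule, and 1 of 9 lower, where 8.16% were lower. With a log2 fold change above 1 required as well, only Hand2 remained, against 3.1% of all genes, and 0 members were below -1, against 5.85%. The same 3 members were those whose groups did not overlap, 2 higher in KO (10.7% of all genes) and 1 lower (8.74%). The median log2 fold change of the 9 was -0.01, beside 0.01 over all tested genes. In DESeq2's Wald test, which called 5.31% of the genes it adjusted (1077 of 20274), 1 member, Hand2, passed with an adjusted p of 0.0116, and limma voom with quality weights gave it 0.0650.

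**Figure D1:**
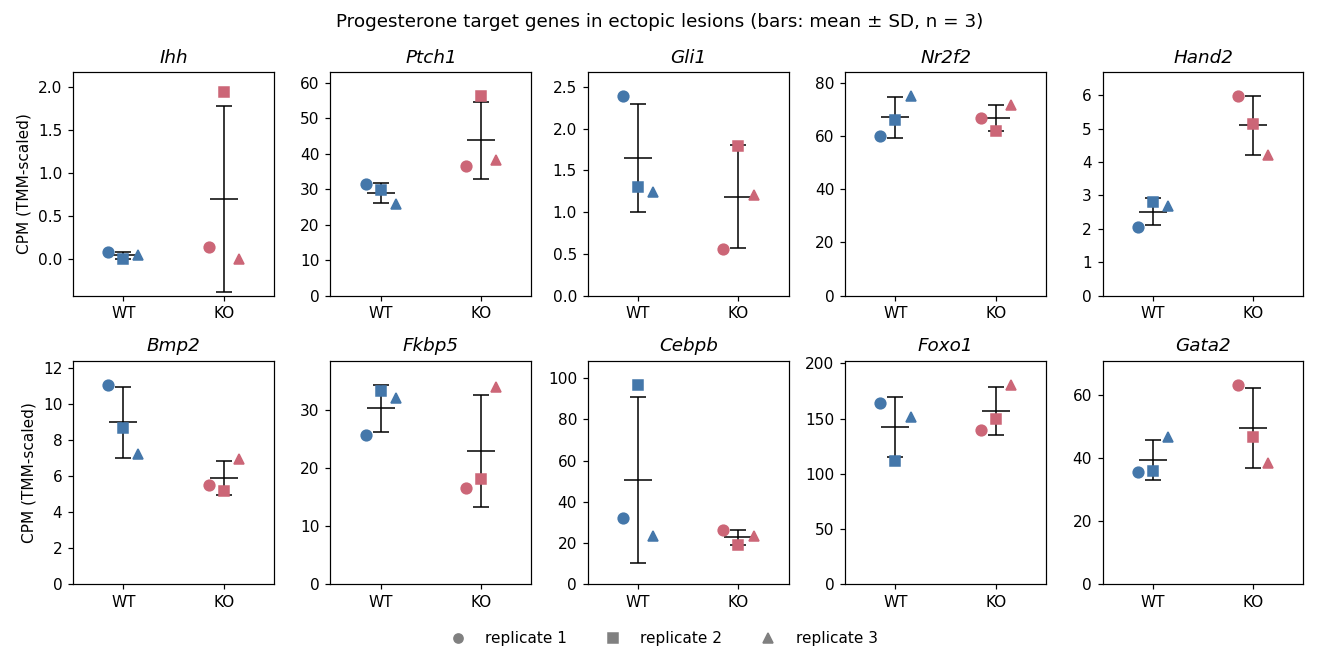
Level of each member in CPM (vertical axis, a separate scale for each gene) in the 3 WT (blue) and 3 KO (red) lesions, with the symbol shape giving the replicate and black bars the mean ± SD. All KO points of Hand2 and Ptch1 lie above, and all KO points of Bmp2 below, the WT points, while Ihh is high only in KO replicate 2 at 1.95 CPM.

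Per length of exon, the members covered a wide range of levels. Cebpb was the highest, with a mean over the 6 lesions of 24.5 CPM per kilobase, followed by Foxo1 with 17.3, but without WT replicate 2 Foxo1 (18.1) was above Cebpb (16.5). Gata2 (8.25) and Nr2f2 (7.75) formed the next level, and Fkbp5 (2.82), Ptch1 (2.56), Bmp2 (2.09) and Hand2 (1.62) the one below. Gli1 (0.283) and Ihh (0.121) were the lowest. The ranges over lesions did not overlap between Foxo1 and Gata2, between Nr2f2 and Fkbp5, or between Hand2 and Gli1, and overlapped between all other neighbours in this order.

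Hand2, a transcription factor that in the uterine stroma restrains growth factor signals to the epithelium, had the largest fold change among the members higher in KO lesions. It lies on chromosome 8 of GRCm38, from 57320983 to 57324633 on the plus strand. Its level was 2.05, 2.79 and 2.69 CPM in the WT lesions, against 5.96, 5.13 and 4.21 CPM in the KO lesions. Every KO lesion was above every WT lesion. The means were 2.51 ± 0.40 CPM in WT and 5.10 ± 0.88 CPM in KO (SD, n = 3), 2.03-fold apart. The log2 fold change was 1.02 (SE 0.26), with an unadjusted p of 0.00726 and an adjusted p of 0.321 in edgeR, and the exact two-sided permutation test gave p = 0.1, the smallest that 3 against 3 lesions allow. With each lesion left out in turn the log2 fold change stayed between 0.89 and 1.14.

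Since Dnmt3a methylates CpG, the promoter windows of the members higher in KO lesions are shown with each CpG in capitals. They run from 250 bases before to 50 bases after a transcript start in RefSeq on GRCm38.p6, and methylation was not measured in these lesions. Hand2 is the window chr8:57320733-57321032 on the plus strand, and Ptch1 the window chr13:63565686-63565985 on the minus strand, which is 1 of the starts of that gene.
Hand2: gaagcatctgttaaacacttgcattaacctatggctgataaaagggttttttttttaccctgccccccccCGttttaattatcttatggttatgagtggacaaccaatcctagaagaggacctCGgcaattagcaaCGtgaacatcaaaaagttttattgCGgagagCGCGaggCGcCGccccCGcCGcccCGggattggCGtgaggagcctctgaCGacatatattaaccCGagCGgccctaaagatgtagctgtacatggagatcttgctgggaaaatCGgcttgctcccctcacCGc
Ptch1: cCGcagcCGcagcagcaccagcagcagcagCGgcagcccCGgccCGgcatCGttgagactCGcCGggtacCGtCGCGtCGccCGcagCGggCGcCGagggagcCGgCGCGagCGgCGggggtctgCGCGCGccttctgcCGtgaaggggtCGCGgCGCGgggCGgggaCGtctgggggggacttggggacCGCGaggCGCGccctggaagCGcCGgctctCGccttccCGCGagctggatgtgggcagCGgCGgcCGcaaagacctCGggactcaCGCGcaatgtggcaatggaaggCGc
The Hand2 window holds 17 CpG and the Ptch1 window 47. Over all 32851 such windows the median was 7 CpG, and 68.6% of windows held fewer CpG than Hand2 and 98.6% fewer than Ptch1.

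Windows were found for 8 of the 10 members, 9 in all, since Gata2 had 2. Their CpG counts were 50 in Cebpb, 32 and 29 in Gata2, 32 in Fkbp5, 31 in Foxo1 and 30 in Ihh, and Nr2f2 stood apart with 2. Whether CpG content goes with the fold change was not tested. The half-site of the progesterone and glucocorticoid receptors, AGAACA on either strand, was in 19.0% of all windows and in 0 of the 9. The GATA motif AGATAA was in 11.2% of all windows and among the members in Hand2 alone, 172 bases before the start and on the minus strand, so that it reads TTATCT in the line above. The GLI motif GACCACCCA (0.253% of windows) and the forkhead motif GTAAACA (3.65%) were in none of the 9.

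Hand2 shares exon sequence with Hand2os1, a transcript of the opposite strand. Hand2os1 had 14, 34 and 16 counts in the WT lesions, against 46, 71 and 44 counts in the KO lesions. It was also higher in every KO lesion. The library kit keeps the strand, but whether counting used it is not given in the sources used here, so part of the reads of both genes may be shared.

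Ptch1, the Hedgehog receptor and itself a target of Hedgehog signalling, lies on chromosome 13 from 63508328 to 63573598 on the minus strand. Its level was 31.3, 29.6 and 25.8 CPM in the WT lesions, against 36.6, 56.3 and 38.3 CPM in the KO lesions. The groups did not overlap, and KO replicate 2 was the highest by far. The means were 28.9 ± 2.8 CPM in WT and 43.7 ± 10.9 CPM in KO (SD, n = 3), with a log2 fold change of 0.60 (SE 0.21, unadjusted p = 0.0276, edgeR adjusted p = 0.328). Without KO replicate 2 the log2 fold change was 0.38 (SE 0.16), with an unadjusted p of 0.0638. It also missed 0.05 without WT replicate 3 (0.50, unadjusted p = 0.0960) and without WT replicate 2 (0.61, unadjusted p = 0.0502).

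Gli1, the transcription factor whose level is widely used as a readout of Hedgehog signalling, had a lower mean in KO lesions, within the spread. It measured 2.39, 1.31 and 1.24 CPM in the WT lesions, against 0.561, 1.79 and 1.21 CPM in the KO lesions. The groups overlapped, with a log2 fold change of -0.47 (SE 0.52, edgeR adjusted p = 0.666). Gli1 had 32 to 112 counts per library and shares exon sequence with Arhgap9 on the opposite strand, which had 568 to 1682 counts.

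Ihh, the ligand upstream of both, was at 8 counts or fewer in 5 of the 6 lesions. It had 4, 0 and 2 counts in the WT lesions, against 8, 98 and 0 counts in the KO lesions. The 98 counts, 1.95 CPM, stood in KO replicate 2, the library with Ovgp1. A count of 0 allows up to 3 counts, which are 0.0675 CPM in WT replicate 2 and 0.0625 CPM in KO replicate 3. If both ends of each fragment were counted, 3 fragments are 6 counts and the limits 0.135 and 0.125 CPM. Ihh was too low for the main test, and without KO replicate 2 the KO lesions had 8 and 0 counts, beside 0 to 4 in WT, so no fold is given. Whether the tissue of that library or the genotype goes with the level of Ihh was not tested.

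Epithelium was present in all 6 lesions. The 7 epithelial markers summed to 1345, 1074 and 1779 CPM in the WT lesions, against 2377, 2233 and 1217 CPM in the KO lesions, and none passed an unadjusted p of 0.05. Epcam, a general epithelial surface protein, was at 211 to 468 CPM. Foxa2, which marks uterine glands, was at 0 to 2.62 CPM. Epithelial signal in these lesions was accompanied by little Ihh and little of the gland marker.

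Of 12 other Hedgehog pathway genes, 10 could be tested, 3 with positive and 7 with negative log2 fold changes and a median of -0.11. None changed at an adjusted p under 0.05 in edgeR or DESeq2, and Smo alone passed an unadjusted p of 0.05. Smo, the membrane protein that Ptch1 holds inactive, measured 59.2, 58.7 and 64.8 CPM in the WT lesions, against 72.3, 83.0 and 83.4 CPM in the KO lesions. The groups were separate, with a log2 fold change of 0.39 (SE 0.12, unadjusted p = 0.0155, edgeR adjusted p = 0.321). Gas1, a Hedgehog co-receptor and the most abundant of these genes, had 51.8 to 119 CPM in WT and 56.0 to 78.2 CPM in KO lesions.

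Nr2f2 (COUP-TFII), a nuclear receptor that relays the Hedgehog signal in the stroma, was the most even of the members. It measured 59.9, 66.2 and 75.1 CPM in the WT lesions, against 66.8, 61.9 and 71.5 CPM in the KO lesions. The KO range lay within the WT range, with a log2 fold change of -0.01 (SE 0.13, edgeR adjusted p = 0.984).

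Bmp2, a secreted factor that uterine stroma needs to become decidua, was the member lower in KO lesions. It lies on chromosome 2 from 133552159 to 133562885. Its level was 11.1, 8.67 and 7.22 CPM in the WT lesions, against 5.54, 5.17 and 6.96 CPM in the KO lesions. The groups did not overlap, though WT replicate 3 and KO replicate 3 were close. The means were 9.0 ± 2.0 CPM in WT and 5.89 ± 0.95 CPM in KO (SD, n = 3), with a log2 fold change of -0.61 (SE 0.24, unadjusted p = 0.0426, edgeR adjusted p = 0.332). In edgeR the unadjusted p was 0.0736 with upper quartile scaling, 0.0504 without a filter and 0.1075 with the replicate number as a block. It also missed 0.05 without WT replicate 1 (-0.43, unadjusted p = 0.152) and without WT replicate 2 (-0.64, unadjusted p = 0.0693). The same held without KO replicate 1 (-0.57, unadjusted p = 0.119) and without KO replicate 2 (-0.52, unadjusted p = 0.120).

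Of 17 other BMP and WNT genes, all tested, 7 had positive and 10 had negative log2 fold changes, with a median of -0.33. Id1, a direct target of BMP signalling, was the only one past an unadjusted p of 0.05. It measured 29.6, 36.5 and 28.6 CPM in the WT lesions, against 18, 13.1 and 20.9 CPM in the KO lesions. Every KO lesion was below every WT lesion, with a log2 fold change of -0.86 (SE 0.22, unadjusted p = 0.00704, edgeR adjusted p = 0.321), and DESeq2 gave an adjusted p of 0.0404. The 2 most abundant genes of the list were receptors: Bmpr2 had a log2 fold change of -0.33 (SE 0.20) with overlapping groups, and Bmpr1a 0.38 (SE 0.19) with every KO lesion above every WT lesion.

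**Figure D2:**
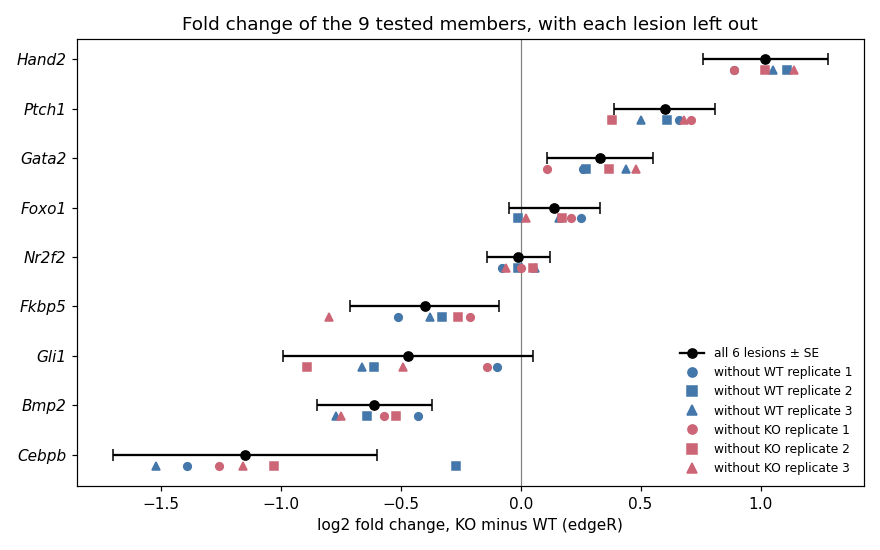
Log2 fold change, KO minus WT, of the 9 tested members (black points with SE bars, edgeR, all 6 lesions) and the same value with each lesion left out (coloured symbols below). Hand2 stays between 0.89 and 1.14, Ptch1 drops to 0.38 without KO replicate 2, and Cebpb moves from -1.15 to -0.27 without WT replicate 2.

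The Müllerian mesenchyme list (Hoxa10, Hoxa11, Hoxd10, Hoxd11, Emx2 and Esr1), which marks uterine stroma and muscle against host tissue, had a higher sum in KO lesions. It was 296, 162 and 316 CPM in the WT lesions, against 600, 601 and 365 CPM in the KO lesions. All KO lesions were above all WT lesions, and 3 of the 6 genes were higher at an unadjusted p under 0.05 (6.55% of all genes), but none passed the adjusted test in edgeR. Esr1 and Emx2, which uterine epithelium also expresses, gave most of the sum. Smooth muscle markers did so in part, with 3 of 6 (Myh11, Cnn1 and Actg2) higher by that unadjusted rule, although their sum overlapped between 1053 to 4843 CPM in WT and 2181 to 3816 CPM in KO. Of these markers, Des was at 2675, 106 and 1357 CPM in WT and 195 to 371 CPM in KO. It was thus highest in WT replicates 1 and 3, the lesions with skeletal muscle markers. The fibroblast and stroma list (Pdgfra, Pdgfrb, Col1a1, Dcn and Lum) ran from 5177 to 5964 CPM in WT and was at 2917, 2183 and 6776 CPM in KO, with no gene past an unadjusted p of 0.05.

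Stromal members were therefore also set against these lists, as log2 CPM of the gene minus the mean log2 CPM of the markers, in 11 ratios computed together with that of Ihh. Relative to Müllerian mesenchyme, Hand2 measured -3.0, -2.13 and -2.95 in the WT lesions, against -2.59, -2.27 and -2.67 in the KO lesions. The groups overlapped and the means differed by 0.18 on the log2 scale (exact permutation p = 0.6), and for Ptch1 the difference was -0.26 (exact permutation p = 0.6). Relative to fibroblast and stroma markers, both were higher in every KO lesion, Hand2 by 1.64 and Ptch1 by 1.20 on the log2 scale (exact permutation p = 0.1 for each). For Ptch1, KO replicate 3 (-4.27) was barely above WT replicate 1 (-4.34). Without KO replicate 2 the differences were 1.29 for Hand2 and 0.67 for Ptch1. The higher levels of Hand2 and Ptch1 stood beside a higher Müllerian mesenchyme sum, beside 7 of 7 epithelial markers with positive log2 fold changes (mean sums 1399 CPM in WT and 1942 CPM in KO, overlapping) and beside the 3 smooth muscle markers, and the part of those cells in the levels was not tested.

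Bmp2 behaved the other way round. Relative to Müllerian mesenchyme it was lower in every KO lesion, by -1.42 on the log2 scale, and Nr2f2 likewise, by -0.83 (exact permutation p = 0.1 for each, the smallest possible). Relative to fibroblast and stroma markers, Bmp2 differed by 0.03 and Nr2f2 by 0.63, both with overlapping groups (exact permutation p = 1 and 0.3). Gli1 overlapped against both lists, with differences of -1.36 and 0.09. The ratio of Ihh to the epithelial list is not given, since at counts of 0 to 8 in 5 lesions it is set by the prior count. Adjustment over the 11 ratios cannot bring any of these p-values below 0.1.

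**Figure D3:**
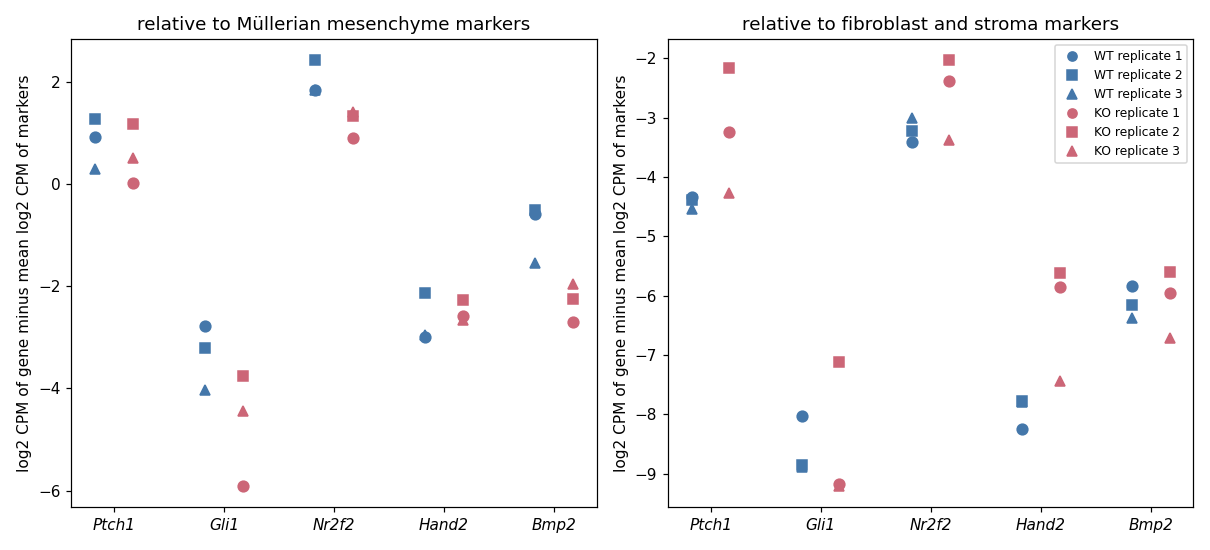
Log2 CPM of 5 stromal members minus the mean log2 CPM of Müllerian mesenchyme markers (left) or of fibroblast and stroma markers (right), for each WT (blue) and KO (red) lesion. KO points of Hand2 and Ptch1 overlap the WT points on the left, with KO replicate 1 of Ptch1 (0.02) below all of them, and lie above them on the right, and KO points of Bmp2 and Nr2f2 lie below the WT points on the left.

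Among 6 fibroblast growth factors and receptors, the ligands of which Hand2 is known to restrain, 1 had a positive and 5 had negative log2 fold changes, with a median of -0.28. Fgfr2, a receptor with an epithelial form that binds ligands from the stroma, measured 27.3, 19.9 and 32.7 CPM in the WT lesions, against 81.4, 83.4 and 52.0 CPM in the KO lesions. The groups were well apart, with a log2 fold change of 1.44 (SE 0.27, unadjusted p = 0.00167, edgeR adjusted p = 0.321) and an adjusted p of 0.000779 in DESeq2. The epithelial marker sum, which overlapped between groups, was likewise lowest in WT replicate 2 among WT lesions and in KO replicate 3 among KO lesions. The part of epithelium in the level of Fgfr2 was not tested. Fgfr1, the receptor more typical of stroma, ran the other way at -0.77 (SE 0.37, adjusted p = 0.368 in edgeR), with overlapping groups. Fgf2, the ligand with the highest mean CPM, had a log2 fold change of -0.08 (SE 0.40).

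Fkbp5, a co-chaperone induced by progesterone and by glucocorticoids, split the KO lesions. It measured 25.7, 33.3 and 32.1 CPM in the WT lesions, against 16.6, 18.2 and 34.1 CPM in the KO lesions. KO replicates 1 and 2 were below every WT lesion and KO replicate 3 was above all of them. The log2 fold change was -0.40 (SE 0.31, edgeR adjusted p = 0.534), and without KO replicate 3 it was -0.80 (SE 0.17, unadjusted p = 0.00605, adjusted p = 0.130). KO replicate 3 was also the KO lesion with the highest fibroblast sum (6776 CPM) and adipocyte sum (3910 CPM, beside 444 and 808 CPM in KO replicates 1 and 2), and the part of those cells in the level of Fkbp5 was not tested.

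Other steroid-induced genes that respond to the glucocorticoid receptor as well leaned lower in KO lesions: 7 of 8 had negative log2 fold changes, with a median of -1.02 beside 0.01 over all genes, and 2 were lower at an unadjusted p under 0.05 (8.16% of all genes). None passed the adjusted test in edgeR. The median was -0.82 to -1.45 with each lesion left out, and without KO replicate 3 it was -1.45, with 7 genes lower at an unadjusted p under 0.05. In all 7 negative genes KO replicate 3, the KO lesion rich in fibroblast and adipocyte markers, was the highest KO lesion. Nr3c1, the glucocorticoid receptor itself, had 112, 164 and 105 CPM in the WT lesions and 50.3, 68.1 and 139 CPM in the KO lesions (log2 fold change -0.56, SE 0.41), again with KO replicate 3 highest, and the part of those cells was not tested. Zbtb16 (16.2, 5.38 and 17.8 CPM in WT) and Klf9 (115, 57.2 and 93.5 CPM in WT) were highest in WT replicates 1 and 3, the lesions with skeletal muscle markers. In both, WT replicate 2 lay inside the KO range. The other negative genes did not share this order, and the part of muscle was not tested. Tsc22d3 (GILZ), a classical steroid-induced gene, measured 71.7, 70.1 and 55.9 CPM in the WT lesions, against 21.8, 26.3 and 33.9 CPM in the KO lesions. The groups were far apart, with a log2 fold change of -1.27 (SE 0.21, unadjusted p = 0.000827, edgeR adjusted p = 0.321), and DESeq2 gave an adjusted p of 0.000271. Dusp1, a phosphatase that is also an immediate early gene, was at -3.28 (SE 1.20), and at -1.32 without WT replicate 2, the lesion with neutrophil markers. Mt2, a metallothionein, was at -0.80 (SE 0.49) with overlapping groups.

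**Figure D4:**
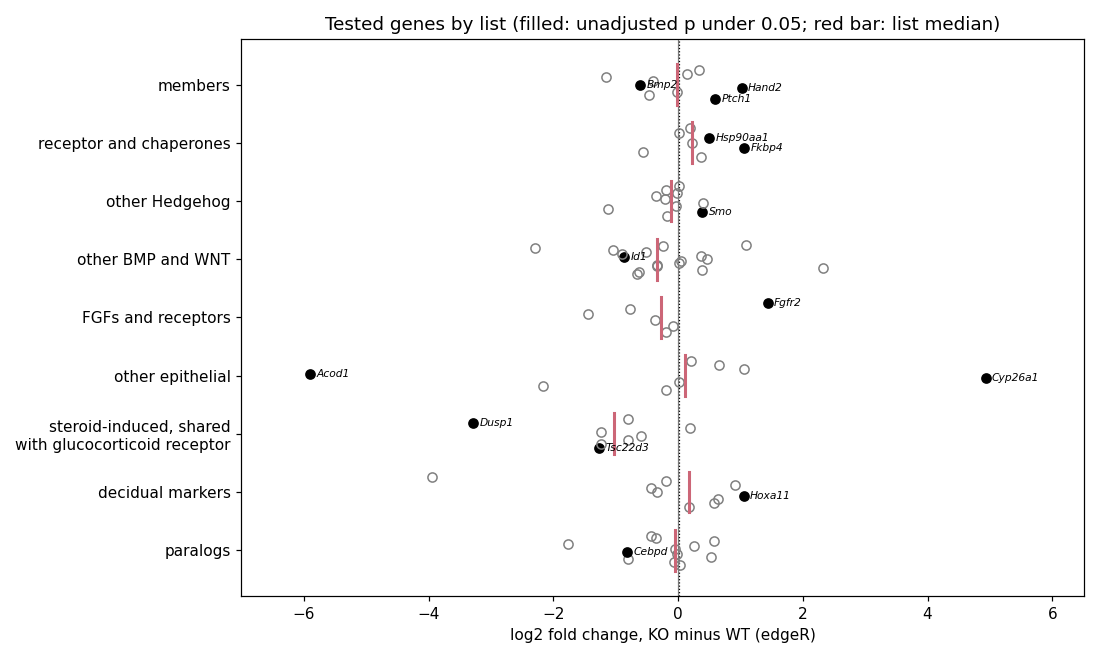
Log2 fold change, KO minus WT (edgeR), of every tested gene of the members and of 8 other lists, with filled points for an unadjusted p under 0.05, a red bar for the median of each list and a dotted line for the median of all tested genes (0.01). The list shared with the glucocorticoid receptor lies furthest to the left, with a median of -1.02.

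The next list held the progesterone receptor, its chaperones and Nr3c1. Pgr itself, from whose locus Cre was expressed in KO donors, measured 137, 135 and 227 CPM in the WT lesions, against 255, 240 and 151 CPM in the KO lesions. The groups overlapped, with a log2 fold change of 0.37 (SE 0.30, edgeR adjusted p = 0.554). Of the 7 genes of this list, all but Nr3c1 had positive log2 fold changes, with a median of 0.23. Hsp90aa1, an Hsp90 chaperone, was higher in every KO lesion (log2 fold change 0.50, SE 0.19, unadjusted p = 0.0372), and Fkbp4, the co-chaperone that the receptor needs in the uterus, was at 1.06 (SE 0.42, unadjusted p = 0.0451) with overlapping groups. Pgr and Fkbp4, like the epithelial marker sum, were lowest in WT replicate 2 among WT lesions and in KO replicate 3 among KO lesions. The part of epithelium in these levels was not tested. Hsp90ab1, the most abundant of them at 1258 to 1793 CPM, was at 0.01 (SE 0.22).

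Cebpb, a transcription factor of stromal decidualization that is also induced in inflammation, measured 32.0, 96.9 and 23.4 CPM in the WT lesions, against 26.3, 19.0 and 23.3 CPM in the KO lesions. A single WT lesion stood out, and the rest overlapped. Cebpb shares exon sequence with Tmem189 on the opposite strand, which had 1568 to 4257 counts. The log2 fold change was -1.15 (SE 0.55, unadjusted p = 0.0817), and without WT replicate 2 it was -0.27 (SE 0.22, unadjusted p = 0.260). WT replicate 2 was the lesion with 9830 CPM of neutrophil markers, led by S100a9 at 5263 CPM and S100a8 at 3406 CPM, and the part of those cells in the level of Cebpb was not tested.

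Foxo1, a forkhead factor of decidual cells, measured 165, 112 and 151 CPM in the WT lesions, against 140, 149 and 181 CPM in the KO lesions. The groups overlapped, with a log2 fold change of 0.14 (SE 0.19, edgeR adjusted p = 0.745). Gata2, which lies upstream of the progesterone receptor in the uterus, measured 35.7, 36.0 and 46.7 CPM in the WT lesions, against 63.4, 46.8 and 38.5 CPM in the KO lesions. KO replicate 1 was the highest and the groups overlapped, with a log2 fold change of 0.33 (SE 0.22, edgeR adjusted p = 0.489).

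Of 13 paralogs of these factors, 12 could be tested, 4 with positive and 8 with negative log2 fold changes and a median of -0.05. Cebpd, a relative of Cebpb, was lower in every KO lesion, from 16.0 to 28.0 CPM in WT and from 7.99 to 14.6 CPM in KO (log2 fold change -0.82, SE 0.31, unadjusted p = 0.0400, edgeR adjusted p = 0.332). Foxo3 and Cebpa, the most abundant paralogs, were at -0.06 (SE 0.12) and -0.02 (SE 0.67).

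Decidual cells themselves were not detected by their defining genes. Prl8a2 and Prl3c1, prolactin family genes of mouse decidua, and Igfbp1 had 0 counts in all 6 libraries, where 3 counts are 0.0526 to 0.0675 CPM per library and 6 counts, for 3 fragments counted at both ends, 0.105 to 0.135 CPM. Of the 12 genes of the decidual list, 9 could be tested, with 5 positive and 4 negative log2 fold changes and a median of 0.17. Hoxa11, a homeobox gene of the uterine stroma that also stands in the Müllerian mesenchyme list, was higher in every KO lesion, from 12.3 to 18.6 CPM in WT and from 19.5 to 39.6 CPM in KO (log2 fold change 1.05, SE 0.31, unadjusted p = 0.0153, edgeR adjusted p = 0.321). Alpl, an alkaline phosphatase of decidualizing stroma, was abundant at 572 to 1453 CPM without a difference beyond the spread (0.17, SE 0.40), and Gja1, the gap junction protein connexin 43, was at -0.33 (SE 0.32).

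Of 8 other epithelial genes induced by progesterone, 5 had positive and 3 had negative log2 fold changes, with a median of 0.11. The 2 past an unadjusted p of 0.05 were each by far the highest in 1 lesion. Cyp26a1, an enzyme that breaks down retinoic acid, had 17 CPM in KO replicate 2 and 0.128 to 0.292 CPM elsewhere, so that its log2 fold change of 4.93 (SE 1.92) was 0.30 without that lesion. Acod1, which makes itaconate and is strongly expressed in activated myeloid cells, had 84.1, 2263 and 49.2 CPM in the WT lesions, against 5.61, 0.914 and 33.7 CPM in the KO lesions. Every KO lesion was below every WT lesion. Its log2 fold change was -5.90 (SE 2.16) in all lesions and -2.31 without WT replicate 2, where it missed an unadjusted p of 0.05. Errfi1, an inhibitor of epidermal growth factor receptor signalling and an abundant gene of this list, was at 0.20 (SE 0.23).

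Over the 8 lists beside the members, 77 of 83 genes could be tested. In edgeR 0 passed the adjusted test, 6 were higher and 5 lower at an unadjusted p under 0.05 (6.55% and 8.16% of all genes), and the median was -0.18. DESeq2 gave 4 with an adjusted p under 0.05 (5.31% of all genes it adjusted), namely Fgfr2, Id1, Tsc22d3 and Dusp1.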

How the data were processed

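Raw counts per gene were deposited by the authors, 1 library for each of 6 lesions. The submitters' processing notes name Trimmomatic, featureCounts and DESeq2, and GRCm39 as the build, whereas the study's methods give GRCm38. The aligner is not given in the sources used here. Symbols, coordinates and exon lengths came from GENCODE M21 on GRCm38 (51948 identifiers matched without version), so coordinates may differ from the models that were counted. No column belonged to another sample. Of genes with 1 to 20 counts, 89.2% to 90.6% had an even count, as when both ends of a fragment are counted, so counting limits cover counting error only.

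Groups were taken from the sample titles. By the study's methods each recipient received 1 fragment, which the labels do not state, and p-values measure the spread between these lesions. Genes were kept by filterByExpr (18177), scaled by TMM and tested with edgeR 4.0.16 (quasi-likelihood, genotype as the only term, R 4.3.3) with Benjamini-Hochberg adjustment over all tested genes. SE was taken as the absolute log2 fold change over the root of the F statistic. CPM carry no prior count, and log2 CPM for ratios and permutation tests a prior count of 2. Steps were tested on simulated data. Alternatives were DESeq2 1.42.0, limma 3.58.1 voom, other scalings and filters, the replicate number as a block, and each lesion left out.

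The members and lists were chosen with earlier results of these data known. Named genes are all members, Dnmt3a, Pgr, and from each other list every gene with an unadjusted p under 0.05 and the 2 with the highest mean CPM. Marker genes are named from lists whose sum differed at least 2-fold between groups or lesions. Other genes named (Ovgp1, Foxj1, Hand2os1, Arhgap9, Tmem189, Dnah5, Epcam, Foxa2, Bmpr1b, Nr3c1, Zbtb16, Klf9, Zp2, Zp3, Nlrp5, Amh, Hsd3b1) were chosen after their values were seen.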

Additional observations from a re-analysis of the deposited data

How the results depend on the processing

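Of 34 named genes with a fit, 414 of 441 values under alternatives kept their direction and their side of the adjusted threshold, and none of 97 ratio values moved beyond the spread. The sign changed in 8 of the 97 ratio values, over 4 ratios near 0 with overlapping groups: Ptch1 to Müllerian markers (0.02), Gli1 (-0.60 to -0.04) and Bmp2 (-0.22 to -0.04) to fibroblast markers with a lesion left out, and mean CPM of Nr2f2 (0.09) with upper quartile scaling. In DESeq2's Wald test 6 genes passed an adjusted p of 0.05 (Hand2, Dnmt3a, Id1, Fgfr2, Tsc22d3 and Dusp1), and the counts at an adjusted p under 0.05 were 1 of the members, 4 of the other lists and 1077 of all genes, beside 0, 0 and 1 in edgeR. That last count was 0 with DESeq2 size factors, with upper quartile scaling and with the block, 12 with voom, and 0 to 398 with a lesion left out, the highest without WT replicate 2. The causes of these differences were not tested.

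The replicate numbers did not pair the lesions (correlations of deviations 0.032, -0.152 and -0.201 for numbers 1, 2 and 3). With the replicate number as a block, unadjusted calls among members were 0 lower, among the other lists 3 higher with 2 above a log2 fold change of 1, and among all genes 613 higher and 787 lower, with 372 above 1 and 573 below -1. No adjusted call among the named genes changed under the block.

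Members lower at an unadjusted p under 0.05 numbered 0 with upper quartile scaling or without a filter and 2 with DESeq2 or voom. With the fold threshold added, DESeq2 gave 2 above and 1 below, Ihh and Cebpb joining Hand2. Among the other lists, upper quartile scaling gave 12 higher, DESeq2 11 lower with 7 below -1, and voom 21 lower with 13 below -1. Among all genes, upper quartile scaling gave 1945 higher, voom 2596 higher, 2882 lower and 855 above 1, DESeq2 2307 lower and 1839 below -1, and no filter 1652 below -1. Upper quartile scaling moved the median of all genes to 0.11, and the members' median to 0.09. The members' median was 0.07 without a filter and 0.05 in DESeq2.

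With each lesion left out, members ranged from 1 to 2 higher, 0 to 2 lower, 0 to 1 above 1 and 0 to 1 below -1, with a median of -0.08 to 0.06. The other lists ranged from 0 to 1 by adjusted p, 1 to 7 higher, 2 to 18 lower, 1 to 4 above 1 and 1 to 16 below -1. All genes ranged from 499 to 2185 higher, 703 to 2366 lower, 280 to 1021 above 1 and 551 to 1650 below -1. For the other lists and for all genes, the most lower calls came without KO replicate 3.

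Directions reversed only for 7 genes with small fold changes. Nr2f2 was at 0.09 with upper quartile scaling, 0.06 without WT replicate 3 and 0.05 without KO replicate 2. Foxo1 was at -0.05 with voom and -0.01 without WT replicate 2 (up to 0.25 with a lesion left out). Hsp90ab1 was at -0.00 with size factors, -0.04 with voom, and -0.12 to -0.01 with lesions left out (-0.03 without KO replicate 1). Fgf2 was at 0.01 with upper quartile scaling, and at 0.17, 0.10 and 0.16 without WT replicate 1, KO replicate 1 and KO replicate 2 (down to -0.59 without KO replicate 3). Alpl was at -0.03 and -0.20 without WT replicate 2 and KO replicate 1 (up to 0.45 without KO replicate 3). Foxo3 was at 0.04 and Cebpa at 0.07 with upper quartile scaling, and Cebpa at 0.49, 0.33 and 0.28 without WT replicate 2, KO replicate 1 and KO replicate 2 (down to -1.02 without KO replicate 3).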

Other observations

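The library labelled KO replicate 2 held far higher levels of some ciliated, secretory, oocyte and ovary transcripts than the other lesions. Of the 192 genes with at least 90% of their summed CPM in it, 174 were protein coding. Ovgp1, the oviduct-specific glycoprotein, stood at 4104 CPM there and at 39.4, 2.61 and 35.6 CPM in the WT lesions, while KO replicates 1 and 3 had 50.5 and 15.6 CPM. Foxj1, the master regulator of motile cilia, stood at 66.8 CPM there and at 10.5 CPM in both other KO lesions, against 0.180 to 2.56 CPM in the WT lesions (log2 fold change 4.49, SE 1.23, unadjusted p = 0.0107, edgeR adjusted p = 0.321). It was thus higher in every KO lesion, and Dnah5, a dynein of motile cilia, stood at 64.6 CPM in KO replicate 2 beside at most 0.458 CPM. Oocyte genes stood almost only in this library as well, with Zp2 and Zp3, which encode egg coat proteins, at 4.81 and 2.11 CPM beside at most 0.128 and 0.0427 CPM, and Nlrp5 at 3.69 CPM beside 0 counts. Amh, a granulosa cell hormone, stood at 1.47 CPM beside 0 counts, and Hsd3b1, an enzyme of steroid synthesis, at 28.4 CPM beside at most 0.421 CPM. Among the genes described above, Ihh, Cyp26a1 and Bmpr1b, a BMP receptor with 32.0 CPM there and 0.912 to 3.33 CPM elsewhere, shared this pattern. These genes were singled out after their values were seen, and what tissue the library holds was not tested.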
